A study of Mus musculus with 6 samples.

Results

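Subunit genes of respiratory complexes II to V and the cytochrome c gene were followed in eWAT, the visceral fat pad that lies beside the epididymis, of mice on a high-fat diet. The 33 genes were chosen by name as nuclear-encoded parts of these complexes, of 22180 genes that the platform's annotation names on rows of their own. They comprise 4 genes of complex II, 6 of complex III, the gene of cytochrome c, 10 of complex IV and 12 of complex V. Of these, 32 had a row that names no other gene. Both rows of Cox6c also name Gm6265, so that gene was left out of the counts. Where a gene had several such rows, the brightest on average over the 6 arrays was used.

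Tissue came from male C57BL/6 mice, 8 months old, after 21 weeks of that diet. There were 3 arrays of wild-type mice (WT 1 to WT 3) and 3 of mice with an adipose-specific transgene of the long noncoding RNA Blnc1 (Tg 1 to Tg 3), so both groups shared strain, sex, age and diet. The labels call the replicates biological, and each array was taken as 1 mouse. They do not say which promoter drives the transgene, and 0 rows are annotated as Blnc1, so the genotype labels were not checked here. Whole tissue was used, in which fewer cells of a type and less RNA per cell cannot be told apart.

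Complexes II to V carry electrons and make ATP in the inner mitochondrial membrane. Complex II takes electrons from succinate, complex III passes them from ubiquinol to cytochrome c, complex IV hands them to oxygen, and complex V uses the proton gradient to make ATP. Mitochondrial DNA encodes a few core subunits of complexes III, IV and V, and the nucleus encodes the others, including all of complex II. White adipocytes hold fewer mitochondria than brown ones, and Blnc1 is known as a regulator of the thermogenic programme of brown fat. Nuclear respiratory genes are known targets of NRF1, of GABP, an ETS factor, and of YY1, which act with the coactivator PGC-1 alpha.

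Promoter windows of 250 bases before and 50 after the start site were taken from a RefSeq table of build GRCm38.p6. Windows on 1 chromosome were left out of the search, for the 33 genes and for all genes alike. Among the remaining windows, 25 of the 33 genes were found. TGCGCA, the core letters of the NRF1 motif, which read the same on both strands, were present in 7 of the 25 (28.0%) and in 8.8% of all 27025 genes with a window. On either strand, the ETS core CCGGAAG was present in 9 of the 25 (36.0%) and in 9.9% of all genes. The YY1 letters AAGATGGC were present in 2 of the 25 (8.0%) and in 3.2% of all genes. Of the 25 genes, 13 held at least 1 of the 3 motifs. None of the 3 spellings contains another, and a match of letters is a description and not a binding site. The NRF1 letters were first searched in a longer spelling and shortened after its matches had been seen, so their share depends on the spelling chosen. The 150 bases before the start are shown for 4 genes, with motif matches in capitals. Cycs and Cox7c are shown because they had the smallest p among these genes, Sdha because it held the NRF1 letters more than once, and Cox6a1 because it held both NRF1 and ETS letters.
Cycs (chr6:50566570-50566719, minus strand): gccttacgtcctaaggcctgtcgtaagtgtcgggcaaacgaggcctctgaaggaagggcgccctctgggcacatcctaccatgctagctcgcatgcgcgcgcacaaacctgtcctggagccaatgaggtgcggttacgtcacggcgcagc
Cox7c (chr13:86046796-86046945, minus strand): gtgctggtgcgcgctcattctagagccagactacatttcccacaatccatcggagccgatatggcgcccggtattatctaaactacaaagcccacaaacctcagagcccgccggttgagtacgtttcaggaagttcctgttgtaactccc
Sdha (chr13:74350241-74350390, minus strand): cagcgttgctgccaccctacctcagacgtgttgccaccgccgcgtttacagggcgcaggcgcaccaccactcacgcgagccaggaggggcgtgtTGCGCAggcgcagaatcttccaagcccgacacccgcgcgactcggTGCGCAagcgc
Cox6a1 (chr5:115348959-115349108, minus strand): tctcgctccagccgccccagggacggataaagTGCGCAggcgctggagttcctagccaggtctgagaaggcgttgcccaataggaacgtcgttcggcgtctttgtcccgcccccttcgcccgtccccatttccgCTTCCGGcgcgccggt
The windows of Cycs and Cox7c held none of the 3 motifs as spelled. Only these exact letters were searched, so this does not show that the windows lack sites for these factors. The Cycs window holds the run catgcgcgcgca, which includes tgcgc and gcgca but was not counted because TGCGCA is not in it.

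White adipocyte markers were present on every array, with Adipoq, the adiponectin gene, at 9.20 or more and Fabp4, a fatty acid carrier gene, at 12.19 to 12.38 (log2 signal). Epididymal genes were high on Tg 2, where Gpx5 read 10.77 against 3.22 on Tg 1 and 1.20 or less on the other arrays. Of the 21 measured epididymal genes, 19 had a positive Tg minus WT difference, and the mean level of the list was 4.29 on Tg 2 and between 1.14 and 1.53 on the other 5 arrays. Spink8, another gene of that list, read 6.55 on WT 2 and 8.09 on WT 3, and 2.53 or less elsewhere. Results without WT 2, WT 3 and Tg 2 are given below, and Tg 1, with its Gpx5 signal, was kept in them.

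Transcripts of the 32 measured genes differed little between the genotypes. Of the 32, 23 read higher and 9 lower in Tg, with differences from -0.31 to 0.21 on the log2 scale and a median of 0.06. Over all genes, 50% read higher, and the median difference was 0.00. Limma's moderated test with Benjamini-Hochberg adjustment over all 41345 rows called 0 of the 32 genes and 0 rows in all (0% of all genes), and the smallest adjusted p among the 32 was 0.47. At an unadjusted p under 0.05 there were 0 genes higher in Tg, where 5.31% of all genes were, and 1 gene lower, where 4.51% of all genes were.

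For 31 of the 32 genes the 95% interval of the difference, not adjusted for the number of genes, lay within 1.5-fold in both directions. The same held for 71.4% of all genes. The exception was Atp5g1, whose row was dim and varied most. The groups did not overlap and Tg was higher in 3 of the 32 genes (Uqcrq, Cycs and Atp5g3), beside 8.85% of all genes. They were separated with Tg lower in 1 gene (Cox7c), beside 9.39% of all genes. The first count is close to the share of all genes and the second is below it.

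**Figure D1:**
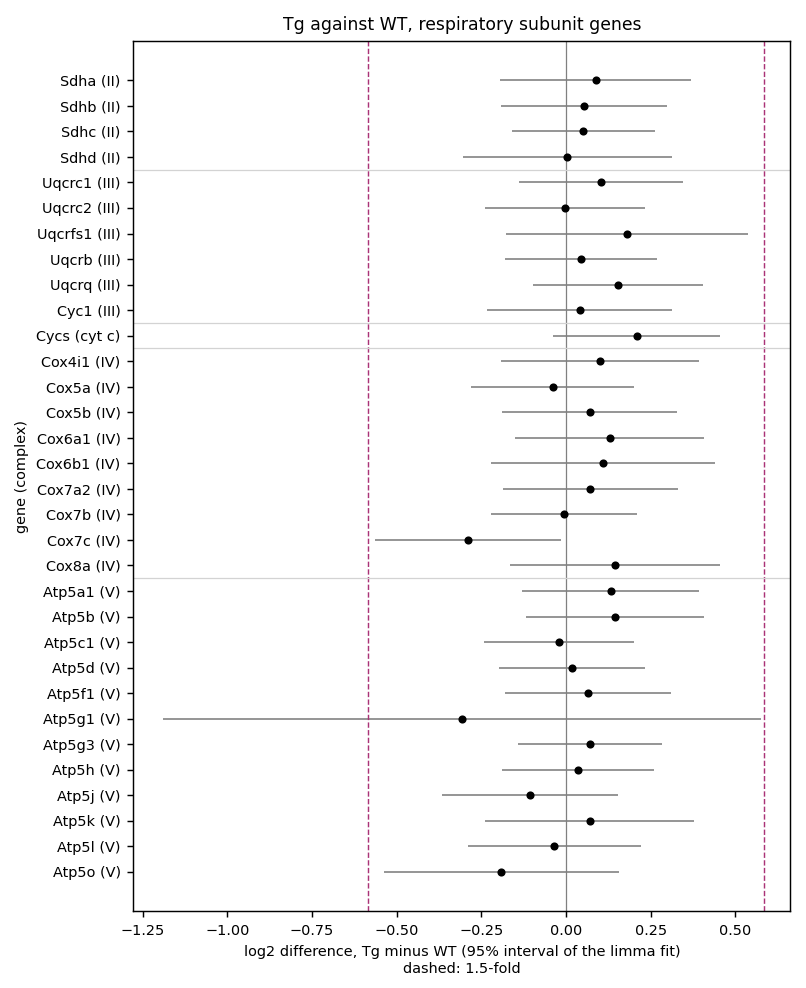
Tg minus WT difference of each of the 32 measured genes (log2, x axis) with the 95% interval of the limma fit, ordered by complex (y axis); dashed lines mark 1.5-fold. Only the interval of Cox7c lies off 0, and only that of Atp5g1 crosses a dashed line.

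The array means of the 32 genes overlapped between the groups. Relative to each gene's mean over the 6 arrays they were 0.01, -0.01 and -0.06 on WT 1 to WT 3 and 0.09, -0.04 and 0.01 on Tg 1 to Tg 3. Tg 1 was the highest array in 16 of the 32 genes, and WT 3 the lowest in 11 and Tg 2 in 9. Over all 22180 genes, Tg 1 was the highest in 4542, and WT 3 the lowest in 4709 and Tg 2 in 4439. Without Tg 1 the median difference was 0.03, and with only WT 1, Tg 1 and Tg 3 it was also 0.03, with 19 of 32 genes higher against that single WT mouse. With each array centred on its median, 28 of 32 genes read higher and the median was 0.12. The same centring put 64.5% of all genes higher, with a median of 0.07, so part of the small positive median moved with the scaling.

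**Figure D2:**
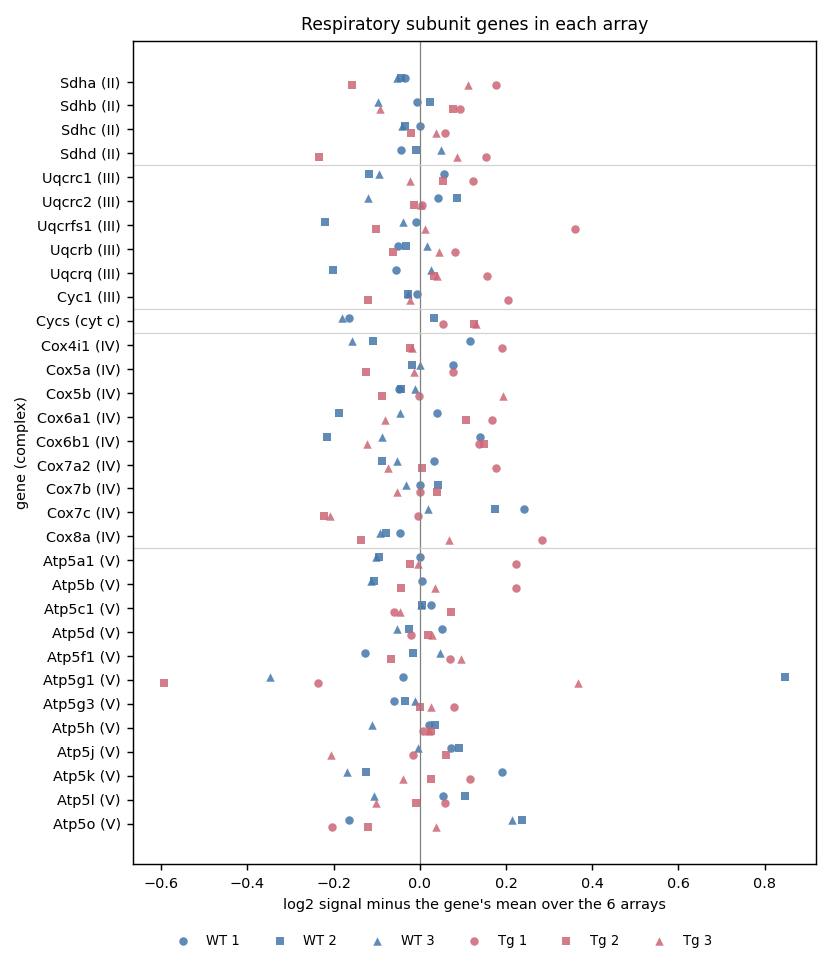
Log2 signal of each of the 32 genes on each array minus the gene's mean over the 6 arrays (x axis), by gene and complex (y axis); blue marks are WT, red marks Tg, and the shape gives the replicate number. WT and Tg marks overlap in 28 genes, and Tg 1 (red circles) is the rightmost mark in 16.

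Complex II, the succinate dehydrogenase that also serves the citrate cycle, read higher in Tg in 4 of 4 genes, with a median difference of 0.05, and in none did the groups separate. Sdha, the flavoprotein that oxidises succinate, read 9.33, 9.32 and 9.32 on WT 1 to WT 3 and 9.55, 9.21 and 9.48 on Tg 1 to Tg 3. Tg 1 and Tg 3 lay above the WT arrays and Tg 2 below them, and the difference was 0.09 ± 0.12 (SE, limma adjusted p = 0.83). Sdhc, a membrane anchor, read 8.60, 8.57 and 8.56 in WT and 8.66, 8.58 and 8.64 in Tg, a difference of 0.05 ± 0.09. Its groups overlapped through WT 1 and Tg 2.

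Sdhd, the other anchor, had the largest p of the complex. It read 7.98, 8.01 and 8.07 in WT and 8.17, 7.79 and 8.11 in Tg, with a difference of 0.003 ± 0.13, and Tg 2 was again the lowest array. Sdhb, the iron-sulfur protein, differed by 0.05 ± 0.10. The SD between Tg arrays exceeded that between WT arrays in all 4 genes, at 0.18 against 0.01 in Sdha and 0.21 against 0.05 in Sdhd.

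Complex III read higher in Tg in 5 of 6 genes, with a median difference of 0.07. Uqcrq, a small accessory subunit, was the only gene of this complex with separated groups. It read 3.10, 2.96 and 3.18 in WT and 3.31, 3.19 and 3.20 in Tg, so WT 3 and Tg 2 nearly touched, and the difference was 0.15 ± 0.11 (limma adjusted p = 0.65). Uqcrfs1, the Rieske iron-sulfur protein that passes electrons to cytochrome c1, read 3.90, 3.69 and 3.88 in WT and 4.28, 3.81 and 3.93 in Tg. Its difference of 0.18 ± 0.15 came mostly from Tg 1, without which it was 0.04. Both rows are dim, and RMA compresses differences between low signals.

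Uqcrc2, a core protein, had the largest p of this complex and read 8.76, 8.80 and 8.59 in WT and 8.72, 8.70 and 8.72 in Tg. Here the Tg arrays lay between the WT arrays, and the difference was -0.004 ± 0.10, which turned to 0.06 with the arrays centred on their medians. The other core protein gene, Uqcrc1, differed by 0.10 ± 0.10, Cyc1, the gene of cytochrome c1, by 0.04 ± 0.11, and Uqcrb, an accessory subunit, by 0.04 ± 0.09. A second, dim row that names Uqcrb with another gene read -0.05 ± 0.15.

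Cycs, the gene of somatic cytochrome c, the small protein that shuttles electrons from complex III to complex IV and triggers the apoptosome when released, had the largest positive difference of the 32 genes. Its row read 9.18, 9.37 and 9.16 in WT and 9.40, 9.47 and 9.47 in Tg. The groups did not overlap, with WT 2 close below Tg 1. The difference was 0.21 ± 0.10, or 1.16-fold, with a 95% interval from -0.04 to 0.46 and a limma adjusted p of 0.54.

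The annotation gives Cycs 5 rows, and in all 5 the Tg arrays lay above the WT arrays. Of these, 2 rows hold the same values on every array and count as 1. The largest difference was in a row at 7.24, 7.34 and 7.14 in WT and 7.47, 7.59 and 7.75 in Tg, which differed by 0.36 ± 0.12 (limma adjusted p = 0.40). The shared-value rows differed by 0.19 ± 0.10 and the dimmest row by 0.18 ± 0.09. The rows come from the same mice and may measure the same transcript or copies of it, since RefSeq lists named pseudogenes for 7 of the 33 genes and 3 for Cycs, so they are not independent. Leaving out each array in turn kept the difference of the brightest row between 0.17 and 0.28.

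**Figure D3:**
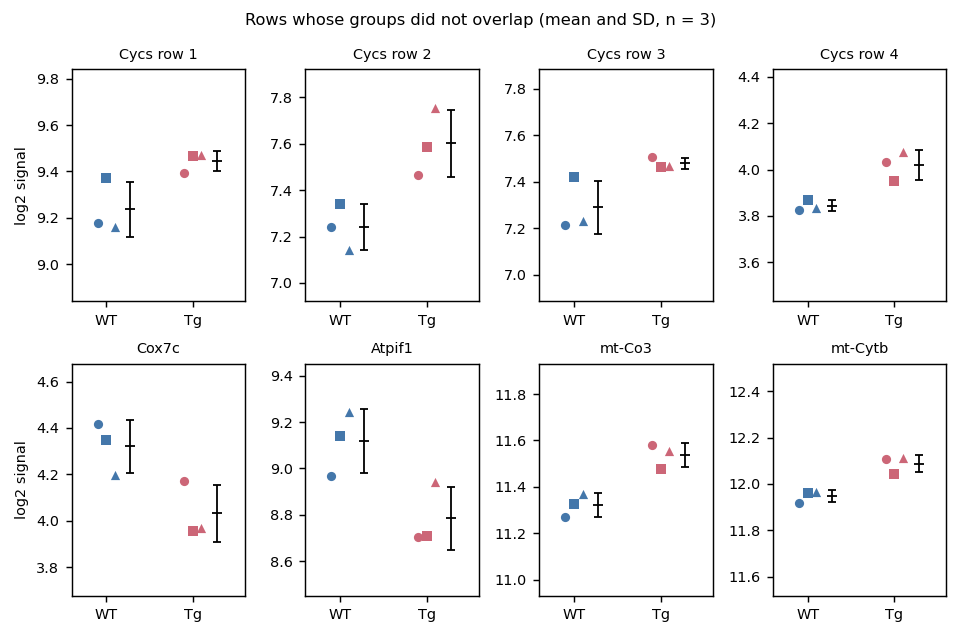
Log2 signal (y axes, each spanning 1 unit) in WT and Tg for the 4 distinct Cycs rows, brightest first, and for Cox7c, Atpif1, mt-Co3 and mt-Cytb; shapes give the replicate number, and bars the mean and SD of 3 arrays. The Tg arrays lie above the WT arrays in all Cycs rows and both mitochondrial genes and below them in Cox7c and Atpif1.

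Complex IV, cytochrome c oxidase, read higher in Tg in 6 of 9 genes with a median difference of 0.07, and its array means overlapped, with WT 1 at 0.06 above Tg 2 and Tg 3. Cox7c, a small subunit of the membrane part, was the only one of the 32 genes with an unadjusted p under 0.05. It read 4.42, 4.35 and 4.20 in WT and 4.17, 3.95 and 3.97 in Tg. All Tg arrays lay below all WT arrays, with only 0.02 between WT 3 and Tg 1. The difference was -0.29 ± 0.11, or 1.22-fold, and the limma p was 0.042 before and 0.47 after adjustment. The row is dim, and RefSeq lists a named pseudogene of Cox7c. The unadjusted limma p rose to between 0.062 and 0.154 without WT 1, WT 2, Tg 2 or Tg 3, with only WT 1, Tg 1 and Tg 3, with median centring, quantile normalization or cyclic loess, and with an intensity trend in the variance.

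Cox8a, subunit 8 in its ubiquitous form, had the next smallest p of complex IV. It read 9.40, 9.36 and 9.35 in WT and 9.72, 9.30 and 9.51 in Tg, a difference of 0.14 ± 0.13 in which Tg 2 lay below the WT arrays. Cox7b had the largest p. It read 6.74, 6.78 and 6.70 in WT and 6.74, 6.78 and 6.68 in Tg, so the groups overlaid one another (-0.01 ± 0.09). A second, dim Cox7b row pointed to a larger difference, at 2.89, 2.84 and 3.17 in WT and 2.18, 2.65 and 2.04 in Tg. That is -0.67 ± 0.19 with separated groups (limma adjusted p = 0.36), and the bright row did not show it.

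The other complex IV genes had positive differences except Cox5a, which binds at the matrix side (-0.04 ± 0.10). Cox4i1, which encodes the largest nuclear subunit in its ubiquitous form, read 8.00, 7.78 and 7.73 in WT and 8.08, 7.86 and 7.87 in Tg, a difference of 0.10 ± 0.12 with WT 1 above Tg 2 and Tg 3. Cox6a1 read 11.71, 11.48 and 11.62 in WT and 11.83, 11.77 and 11.58 in Tg (0.13 ± 0.12), with Tg 3 below WT 1 and WT 3. Cox7a2 read 6.72, 6.60 and 6.63 in WT and 6.86, 6.69 and 6.61 in Tg (0.07 ± 0.11). Cox6b1, on the side facing the intermembrane space, differed by 0.11 ± 0.14 and Cox5b by 0.07 ± 0.11. RefSeq lists a named pseudogene of Cox5b, and a second, dim row of it read 0.004 ± 0.31. The rows shared by Cox6c and Gm6265 differed by 0.02 ± 0.11 and 0.01 ± 0.13.

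Tissue-restricted isoforms of complex IV, known from muscle, brown fat and lung, overlapped between the groups as well. Cox8b, the muscle and brown fat form of subunit 8, read 4.77, 4.05 and 4.25 in WT and 4.81, 4.42 and 4.49 in Tg (0.22 ± 0.21). Cox7a1, the muscle and brown fat form of subunit 7A, read 3.55, 2.63 and 2.74 in WT and 2.67, 2.99 and 3.14 in Tg (-0.04 ± 0.27), with WT 1 the highest array. Cox6a2, the muscle form of subunit 6A, read 4.00, 3.63 and 4.00 in WT and 3.95, 4.10 and 4.22 in Tg (0.21 ± 0.14). Cox4i2, the lung form of subunit 4, read 2.91, 3.51 and 3.19 in WT and 3.14, 3.03 and 3.75 in Tg (0.10 ± 0.24). The 12 thermogenic adipocyte markers, which include Cox8b and Cox7a1, had no common direction, with 7 higher, 5 lower and a median difference of 0.10. Ucp1, which uncouples respiration from ATP synthesis in thermogenic fat, differed by -1.55 ± 0.30 with separated groups (limma adjusted p = 0.33). Its row is dim, at 4.58, 4.05 and 3.34 in WT and 2.64, 2.34 and 2.35 in Tg. The Tg values were not above the array medians of 2.64 to 2.75. Kng2, a marker of that list but not of the one first planned, differed by -0.87 ± 0.27, also with separated groups (limma adjusted p = 0.39). No other of the 12 had separated groups, so 2 were separated with Tg lower, beside 9.39% of all genes. The same 2 had an unadjusted limma p under 0.05, beside 4.51% of all genes. Elovl3, a fatty acid elongase gene, differed by 0.60 ± 0.28 with overlapping groups, Otop1 by 0.29 ± 0.14 and Cidea by 0.13 ± 0.35.

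Complex V, the ATP synthase, read higher in Tg in 7 of 12 genes with a median difference of 0.03, which was 0.09 with the arrays centred on their medians. The catalytic head was led by Atp5b, whose beta subunit makes ATP. It read 10.61, 10.49 and 10.49 in WT and 10.82, 10.56 and 10.64 in Tg, and WT 1 lay above Tg 2 (0.14 ± 0.11, limma adjusted p = 0.69). Atp5a1, of the alpha subunit, differed by 0.13 ± 0.11. The genes of the central stalk differed less, with Atp5c1 (gamma) at -0.02 ± 0.09 and Atp5d (delta) at 0.02 ± 0.09.

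Atp5d had the largest p of the complex. It read 7.20, 7.13 and 7.10 in WT and 7.13, 7.17 and 7.18 in Tg, with WT 1 the highest array. Its second row spread more widely, at 6.66, 5.62 and 6.41 in WT and 6.82, 7.50 and 6.22 in Tg (0.61 ± 0.39). The sign of the Atp5c1 difference changed with each of the 3 renormalizations.

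In the peripheral stalk, which holds the head in place, Atp5o, the gene of OSCP, had the smallest p of complex V. It read 3.52, 3.92 and 3.90 in WT and 3.48, 3.56 and 3.72 in Tg, with WT 1 among the Tg arrays (-0.19 ± 0.14, limma adjusted p = 0.68). The row is dim, and with only WT 1, Tg 1 and Tg 3 the value was 0.08. Atp5j, of coupling factor 6, differed by -0.11 ± 0.11, Atp5f1, of subunit b, by 0.06 ± 0.10 and Atp5h, of subunit d, by 0.04 ± 0.09. The second, dimmer row of Atp5h read 4.36, 4.73 and 4.23 in WT and 4.20, 4.05 and 4.07 in Tg, lower by -0.34 ± 0.15 with separated groups, opposite in sign to the bright row.

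The c ring is the rotor that protons turn, and Atp5g1, Atp5g2 and Atp5g3 encode the same mature protein with different import sequences. Atp5g3 read 7.00, 7.02 and 7.05 in WT and 7.14, 7.06 and 7.08 in Tg. The groups did not overlap, but WT 3 and Tg 2 were 0.01 apart and the difference was 0.07 ± 0.09 (limma adjusted p = 0.82). Atp5g1 read 2.92, 3.81 and 2.61 in WT and 2.72, 2.37 and 3.33 in Tg, and its difference of -0.31 ± 0.37, the largest in size among the 32, was smaller than its own error. Without WT 2 it was 0.04. Atp5g2 read 9.51, 9.38 and 9.37 in WT and 9.50, 9.32 and 9.39 in Tg (-0.02 ± 0.10). Of the small membrane subunits, Atp5k (e) differed by 0.07 ± 0.13 and Atp5l (g) by -0.04 ± 0.11.

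Other genes of the pathway were read from lists that complete these complexes. Of 20 further nuclear subunits, isoforms and direct partners, 19 were measured, 14 read higher, and the median difference was 0.09. Many of these rows are dim, with mean signals of 0.82 for Cox8c, 1.005 for Cox7b2 and 1.30 for Cyct. The median is the difference of Cox7b2 (0.086), so the count and the median rest partly on rows with little signal. None passed the adjusted threshold in limma. An unadjusted p under 0.05 was found for 1 of the 19, lower in Tg, beside 4.51% of all genes, so the count is close to the background. That was Atpif1, the inhibitor that stops ATP synthase from running backwards, at 8.97, 9.14 and 9.24 in WT and 8.70, 8.71 and 8.94 in Tg. All Tg arrays lay below all WT arrays, with 0.03 between WT 1 and Tg 3. The difference was -0.33 ± 0.12 (limma adjusted p = 0.45). Dmac2l, known as ATP synthase factor B, read 5.27, 5.23 and 5.02 in WT and 5.43, 5.34 and 5.45 in Tg, with Tg above WT throughout (0.24 ± 0.11, limma adjusted p = 0.52). Groups were thus separated with Tg lower in 1 of the 19, beside 9.39% of all genes, and with Tg higher in 1, beside 8.85%.

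Of 6 mitochondrially encoded subunits, 3 had a row of their own, and all 3 read higher in Tg, by a median of 0.14. The mt-Co3 gene, of a core subunit of complex IV, read 11.27, 11.33 and 11.37 in WT and 11.58, 11.48 and 11.56 in Tg. The groups were separated and the difference was 0.21 ± 0.09 (limma adjusted p = 0.49). The mt-Cytb gene, of the core of complex III, read 11.92, 11.96 and 11.97 in WT and 12.11, 12.04 and 12.11 in Tg, also separated (0.14 ± 0.09). The mt-Co1 gene, of the catalytic core of complex IV, overlapped between the groups (0.08 ± 0.09). Groups were thus separated with Tg higher in 2 of the 3, beside 8.85% of all genes. The array means of the 3 genes were -0.10, -0.05 and -0.07 in WT and 0.11, 0.03 and 0.08 in Tg. Mitochondrial transcripts are cut from shared precursors, so the 3 genes are not independent.

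Among 31 measured assembly factors 20 read higher, the median difference was 0.02, and 0 passed the adjusted threshold in limma. An unadjusted p under 0.05 was found for 2 of the 31, both higher in Tg, beside 5.31% of all genes, so the count is close to the background. Both are complex II factors. Sdhaf3 read 4.30, 4.09 and 4.16 in WT and 4.42, 4.60 and 4.80 in Tg (0.43 ± 0.13, limma adjusted p = 0.38). Sdhaf4 read 4.40, 4.47 and 4.42 in WT and 4.59, 4.72 and 4.67 in Tg (0.23 ± 0.09, limma adjusted p = 0.47). Both had separated groups. Among the 31 factors the groups were separated with Tg higher in 3 and lower in 2, beside 8.85% and 9.39% of all genes. Of the other complex II factors, Sdhaf1 read higher in Tg with overlapping groups (0.16 ± 0.17) and Sdhaf2 read lower with separated groups (-0.13 ± 0.09).

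The 16 regulators of respiratory genes had a median difference of 0.02, and 0 of them had separated groups or an unadjusted p under 0.05 in limma. Over all genes, groups were separated with Tg higher in 8.85% and with Tg lower in 9.39%. The shares at such a limma p were 5.31% and 4.51%. Esrra, the gene of the nuclear receptor ERR alpha, read 4.01, 4.09 and 4.40 in WT and 4.57, 4.44 and 4.36 in Tg (0.29 ± 0.14, limma adjusted p = 0.53), with WT 3 above Tg 3. Esrrg, of ERR gamma, differed by 0.33 ± 0.19. Ppargc1a, the gene of PGC-1 alpha, differed by 0.12 ± 0.18, Nrf1 by -0.08 ± 0.11, Gabpa by -0.07 ± 0.11, and Tfam, the gene of the factor that transcribes and packs mitochondrial DNA, by -0.11 ± 0.18.

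Markers of adipocytes, macrophages and lymphocytes had larger median differences than the respiratory genes, although 0 of them passed the adjusted threshold in limma. Of 24 measured white adipocyte markers all 24 read higher in Tg, with a median difference of 0.42. The groups were separated in 17 of them, beside 8.85% of all genes, and 13 had an unadjusted limma p under 0.05, beside 5.31%. This list was longer than first planned, as were the macrophage and T and NK cell lists below. Thrsp, Klb, Adipor2 and Rbp4, which had its smallest limma p, were among the genes added. Since lists were chosen with earlier results of these data known, the counts describe these genes and are not a test. All 14 macrophage markers read lower, with a median of -0.28. The groups were separated in 12 of them, beside 9.39% of all genes, and 8 had an unadjusted limma p under 0.05, beside 4.51%. The 11 measured T and NK cell markers had the largest median difference in size of these 3 lists, -0.88, and all 11 read lower in Tg. Of the 11, 0 had separated groups, beside 9.39% of all genes with Tg lower. An unadjusted limma p under 0.05 was found for 1, beside 4.51%. That was Gzmb, whose row is dim (mean 2.85). The means of the 11 markers were 0.61 on WT 2 and 1.23 on WT 3. On WT 1 the mean was -0.64, which lay among the Tg arrays (-0.01, -0.51 and -0.67). On the same arrays the 32 respiratory genes had a median of 0.06. Within the Tg group the white adipocyte means ranked Tg 1, Tg 3 and Tg 2 from high to low (0.38, 0.25 and 0.02), and the respiratory means had the same order. Within WT both were lowest on WT 3. The part of tissue makeup in the respiratory values was not tested. Of 12 muscle markers 8 read higher, by a median of 0.13.

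**Figure D4:**
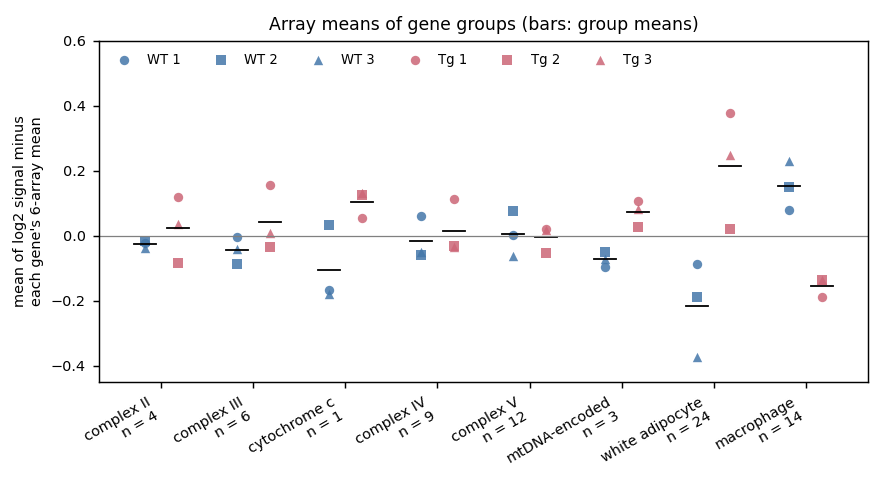
Mean over the genes of a group of log2 signal minus each gene's 6-array mean (y axis), for each array (blue WT, red Tg, shape by replicate number; black bars are group means of 3 arrays), by gene group with its number of genes (x axis). Means of complexes II, III, IV and V overlap between WT and Tg, while those of cytochrome c (1 gene), the 3 mitochondrially encoded genes, white adipocyte and macrophage markers do not.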

How the data were processed

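Total RNA of 6 eWAT samples was labelled with biotin and measured on Affymetrix arrays, according to the labels. The deposited values are log2 signals of 41345 rows, with array medians of 2.64 to 2.75; RMA and limma are named in the submitters' processing notes. Versions, settings and genome build are not given in the sources used here. RMA normalizes between arrays, which hides a change of total RNA, and the number of arrays limits the precision.

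Rows were named through the platform annotation: 23521 name 1 gene, 1814 several and 16010 none. All 33 names matched a RefSeq table, Atp5f1 as Atp5pb. Tg was compared with WT on all rows with limma 3.58.1 in R 4.3.3 (lmFit, eBayes, two-sided, no filter or covariate), and p-values were adjusted over all rows by Benjamini-Hochberg (threshold 0.05). Each difference is the mean of Tg minus that of WT, with the fit's standard error (SE). The procedure was tested on simulated data with changes larger than any difference among the measured respiratory genes, so that test does not cover differences as small as theirs. With 3 arrays a group, 0.1 is the lowest p that an exact permutation test allows.

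Genes, lists and tests were chosen with earlier results of these data known. All array values are given for the genes of each complex with the 2 smallest and the largest p, for Cycs and for isoform groups. From the other lists of the pathway the 2 genes with the smallest p were named, with 4 more regulators. Genes of the cell type marker lists were not named by that rule, and other genes were named after their values were seen. The cell type marker lists used were longer than those first planned. Dim means a mean log2 signal under 5. Alternatives left out each array or the 3 with the highest mean of the epididymal list, blocked on replicate number, and changed normalization, row filter, variance model and row choice.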

Additional observations from a re-analysis of the deposited data

How the results depend on the processing

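No alternative with a test called any of the 32 genes (smallest adjusted p 0.32) or any row in limma, also at an adjusted p of 0.10. Counts of genes at an unadjusted p under 0.05 stayed at 1, except 0 with quantile normalization, with cyclic loess, with only WT 1, Tg 1 and Tg 3, and among the genes of mean signal 5 or more (chosen after seeing the data), and 3 with the mean of a gene's rows (Cycs, Cox7b and Cox7c). They were 0 to 1 when 1 array was left out. The gene was not always Cox7c: it was Atp5o without WT 1, and Cycs without WT 2, with median centring and with the intensity trend. Genes with separated groups numbered 4 to 15 when 1 array was left out, the most without Tg 2 (29.8% of all genes) and 12 without WT 1 (33.5%). They numbered 21 with only WT 1, Tg 1 and Tg 3 (68% of all genes) and 2 among genes of signal 5 or more. Rows at an unadjusted p under 0.05 numbered 2721 with only rows of 1 gene, fewer rows being tested, and 2246 with only WT 1, Tg 1 and Tg 3. Averaging a gene's rows leaves no rows to count, so it gives no value for the counts over rows. The median difference was 0.124 for all 32 genes and 0.092 for complex V with arrays centred on their medians, -0.026 for complex IV with only WT 1, Tg 1 and Tg 3, and 0.064 for complex V among genes of signal 5 or more; the cause was not tested. Left-out arrays gave medians of 0.029 to 0.087 for all 32 genes and -0.007 to 0.032 for complex V. The replicate number was used as a replicate block, with 4034 rows at an unadjusted p under 0.05 (4263 without) and 1 of the 32 genes. Same-numbered arrays correlated at -0.04, 0.01 and -0.04 in their deviations from group means. With so few arrays a group, these values cannot exclude that same-numbered mice were paired. No row was called with or without the block, so the calls could not show an effect of it.

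The sign of 16 of the 32 small differences never changed, and that of the others changed in at least 1 alternative. With median centring these were Uqcrc2 (0.061), Cox5a (0.025), Cox7b (0.058), Atp5c1 (0.044) and Atp5l (0.030); with quantile normalization Uqcrc2 (0.007), Cox7b (0.014) and Atp5c1 (0.065); with cyclic loess Cox7b (0.014) and Atp5c1 (0.027); with the mean of a gene's rows Atp5h (-0.149). With only WT 1, Tg 1 and Tg 3 these were Uqcrc1 (-0.005), Cox4i1 (-0.030), Cox6b1 (-0.134), Atp5d (-0.047), Atp5g1 (0.104), Atp5h (-0.008), Atp5k (-0.152) and Atp5o (0.080). Leaving out 1 array gave ranges through 0 for Sdhd (-0.073 to 0.121), Uqcrc2 (-0.065 to 0.038), Cyc1 (-0.051 to 0.110), Cox5a (-0.089 to 0.012), Cox5b (-0.010 to 0.129), Cox7b (-0.029 to 0.017), Atp5c1 (-0.063 to 0.003), Atp5d (-0.004 to 0.047), Atp5g1 (-0.569 to 0.039), Atp5h (-0.011 to 0.062) and Atp5l (-0.097 to 0.010).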
